A study of Emiliania huxleyi CCMP1516 with 36 samples.

Results

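The polyketide synthase genes of the haptophyte alga Emiliania huxleyi were taken as every row of the deposited table of estimated counts whose identifier is PKS followed by a digit. This rule used names and no measured value, and it found 11 genes, PKS1 to PKS11, among 37212 genes. Of these, 10 passed the filter on low counts and were tested together with 26494 genes in all, and PKS4 did not pass.

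Polyketide synthases build carbon chains from small acyl units, as fatty acid synthases do, with ketosynthase, acyltransferase and acyl carrier domains, but they may skip some of the reduction steps in each round. Haptophytes carry large modular synthases of this kind, and in the related alga Prymnesium parvum giant synthases are tied to the prymnesin toxins. No product of a single E. huxleyi gene is stated in the labels or the table, so the members are described by number.

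The study asked how the alga responds to 2-heptyl-4-quinolone (HHQ), an alkylquinolone signal that bacteria such as Pseudomonas and Pseudoalteromonas release. All cultures were axenic batch cultures of strain CCMP2090, grown in seawater-based medium on a light and dark cycle; the labels name the organism by the related strain CCMP1516. Each of 9 groups had 4 biological replicate cultures. The parent cultures, taken at time 0 and used to inoculate the others, had neither HHQ nor solvent; the rest had the vehicle alone or HHQ at 1, 10 or 100 ng/ml and were sampled after 24 h or 72 h. The vehicle was dimethyl sulfoxide at a final 0.002%, which the cultures with HHQ also had. A level below is a CPM value, a count scaled to the TMM-normalized size of its library, so it is a share of the messenger RNA of a bulk culture: fewer cells that express a gene and less RNA per cell cannot be told apart.

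Library totals ran from 5679128 to 42602884 counts, and 16249 to 26308 genes had at least 10 counts. Of 88 antenna and photosystem marker genes (the Lhcf family, PSBO and PSAE), 75 were detected in every library, and the Lhcf genes held 2.29% to 14.3% of the counts. That share was 3.46% to 4.61% with 100 ng/ml HHQ at 24 h, against 12.8% to 14.3% with vehicle, and 2.29% to 4.29% against 8.79% to 11.04% at 72 h. The scaling factors also differed between these groups, at 1.60 to 1.83 with 100 ng/ml against 0.670 to 1.10 with vehicle at 24 h and 1.23 to 2.13 against 0.491 to 0.895 at 72 h. The parent cultures had an Lhcf share of 9.58% to 12.4% and factors of 0.859 to 1.25. With 10 ng/ml the share was 7.23% to 8.44% and the factors 0.927 to 1.27 at 24 h. At 72 h that dose had a share of 7.89% to 10.2% and factors of 0.605 to 1.08. Scaling by library totals in place of TMM moved the median gene at 100 ng/ml to a log2 fold change of 0.87 (24 h) and 1.17 (72 h), in place of 0.07 and 0.04, and every fold change below is relative to the TMM scale. The part of the Lhcf share in the results was not tested. Some libraries stood apart from their group on the first axis of deviations over all genes: replicate 4 at 24 h with vehicle, 10 and 100 ng/ml, replicates 1 and 4 with 1 ng/ml at 24 h, replicate 1 of the parent cultures, and at 72 h replicates 1 and 2 against 3 and 4 in every group. Counts of 8 members were fractional in all 36 libraries, as happens when reads are divided among similar sequences, so single values of these members are uncertain, while PKS3 had whole counts in all 36 libraries and PKS5 had fractional counts in 30.

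PKS3 was the member that lay furthest below vehicle under HHQ. It was also the gene with the most counts of the family in every group except the parent cultures, where PKS7 had more. In the parent cultures it had 56.2, 52.3, 58.8 and 54.3 CPM. At 24 h it had 639, 822, 615 and 861 CPM with vehicle, 713, 639, 816 and 798 with 1 ng/ml, 274, 255, 375 and 433 with 10 ng/ml, and 137, 120.4, 120.1 and 199.9 with 100 ng/ml. Vehicle and 1 ng/ml overlapped, whereas 10 ng/ml lay wholly below both and 100 ng/ml wholly below 10 ng/ml. After 72 h the values were 791, 1163, 1143 and 1567 CPM with vehicle, 959.5, 854, 1171 and 1730 with 1 ng/ml, 947, 607, 815 and 1025 with 10 ng/ml, and 186, 177, 163 and 197 with 100 ng/ml. Here 10 ng/ml overlapped the vehicle, and the 4 cultures with 100 ng/ml were again below all others of that time.

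The level of PKS3 with 100 ng/ml averaged 144 ± 37.9 CPM at 24 h, against 734 ± 125 CPM with vehicle (SD, n = 4 each). This was 5.09-fold lower, a log2 fold change of −2.35 ± 0.24 (SE; edgeR quasi-likelihood test, adjusted p = 6.83e-09). The 72 h mean was 181 ± 14.7 CPM with 100 ng/ml, against 1166 ± 317 CPM with vehicle, 6.46-fold lower (log2 −2.69 ± 0.24, adjusted p = 4.12e-10). With 10 ng/ml it was 2.20-fold lower at 24 h (log2 −1.14 ± 0.23, adjusted p = 0.000849), a call lost when libraries were scaled by totals alone (−0.88, adjusted p = 0.0755). The log2 difference at 72 h with 10 ng/ml was −0.46 ± 0.23, with an adjusted p of 0.56.

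**Figure D1:**
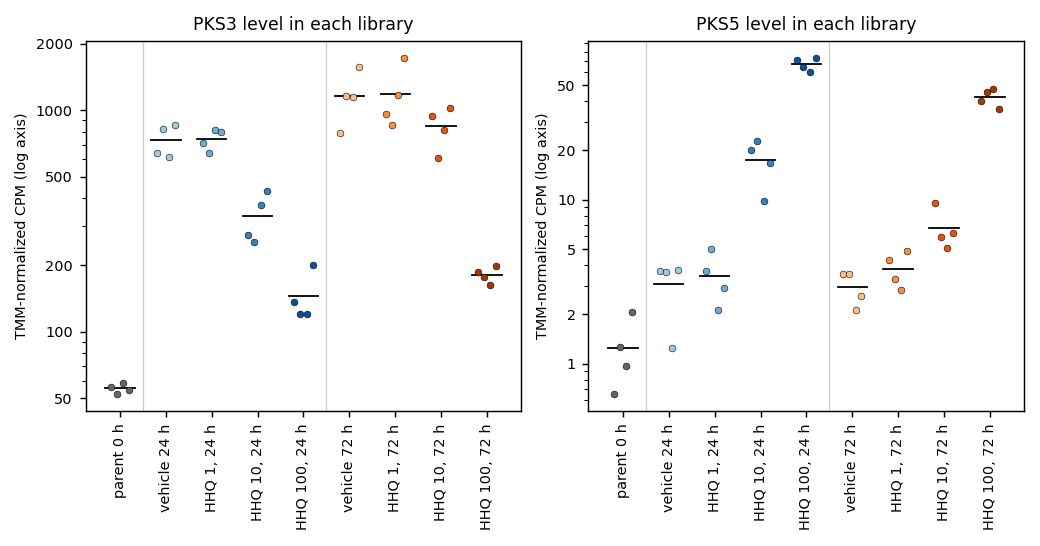
TMM-normalized CPM on a log axis for PKS3 (left) and PKS5 (right) in each of the 36 libraries by group; points are libraries and black lines the mean of 4 cultures. PKS3 lay lowest in the parent cultures. With 100 ng/ml HHQ at 24 h it had a mean of 144 CPM, against 734 CPM with vehicle, while PKS5 stood at 67.2 against 3.08 CPM.

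PKS5 moved the other way, with the strongest rise of the family. The parent cultures had 0.654, 1.27, 0.969 and 2.08 CPM. At 24 h the gene had 3.69, 3.64, 1.25 and 3.74 CPM with vehicle, 3.67, 5.03, 2.12 and 2.92 with 1 ng/ml, 20.1, 22.9, 9.88 and 16.8 with 10 ng/ml, and 71.0, 64.2, 60.0 and 73.7 with 100 ng/ml. The 2 lower groups overlapped, and each of the 2 higher doses lay wholly above the dose before it. After 72 h the values were 3.51, 3.51, 2.14 and 2.60 CPM with vehicle, 4.30, 3.27, 2.82 and 4.84 with 1 ng/ml, 9.57, 5.94, 5.05 and 6.28 with 10 ng/ml, and 40.2, 45.4, 47.6 and 35.9 with 100 ng/ml. The same order held, with every culture at 10 ng/ml above every vehicle culture and every culture at 100 ng/ml above those.

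With 100 ng/ml, PKS5 averaged 67.2 ± 6.24 CPM at 24 h, against 3.08 ± 1.22 CPM with vehicle, which is 22.1-fold higher (log2 4.46 ± 0.34, adjusted p = 5.03e-11). Its 72 h mean was 42.3 ± 5.28 against 2.94 ± 0.686 CPM, 14.4-fold higher (log2 3.84 ± 0.33, adjusted p = 2.03e-10). With 10 ng/ml it was 5.69-fold higher at 24 h (log2 2.51 ± 0.32, adjusted p = 7.37e-07). At 72 h that dose gave 2.28-fold with an adjusted p of 0.061 (log2 1.19 ± 0.32), and 1.18 with an adjusted p of 0.0049 once the replicate number was a block, a fit in which same-numbered cultures of these groups deviated together. The lowest vehicle culture at 24 h, replicate 3, had 1.25 CPM, and the fold change at 100 ng/ml stayed between 4.16 and 4.57 on the log2 scale whichever single library of the 2 groups was left out.

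PKS8 also rose at 100 ng/ml, by less. At 24 h its level was 92.9, 98.4, 76.5 and 92.1 CPM with 100 ng/ml, against 50.1, 38.9, 24.7 and 41.8 CPM with vehicle, and the groups did not overlap. That was 2.32-fold higher (log2 1.21 ± 0.22, adjusted p = 6.01e-05). Its 72 h level was 85.4, 77.0, 77.7 and 60.9 CPM, against 40.6, 43.4, 37.05 and 43.7 CPM with vehicle, 1.83-fold higher (log2 0.87 ± 0.22, adjusted p = 0.00161). With 10 ng/ml the log2 differences were 0.51 at 24 h (adjusted p = 0.134, and 0.0279 with the replicate block) and 0.49 at 72 h (adjusted p = 0.462).

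PKS6 was higher with 100 ng/ml at both times. Its cultures had 26.8, 30.9, 24.5 and 39.5 CPM at 24 h, against 21.3, 20.6, 14.5 and 19.97 CPM with vehicle, 1.60-fold higher (log2 0.67 ± 0.19, adjusted p = 0.0057). Without replicate 4 of 100 ng/ml, 1 of the libraries that stood apart, the difference was 0.46 with an adjusted p of 0.0616. The 24 h call held in the fit that left out replicate 4 of every group at 24 h and time 0. At 72 h PKS6 had 25.8, 24.7, 22.9 and 20.6 CPM, against 11.1, 13.4, 11.9 and 14.7 CPM with vehicle, 1.84-fold higher (log2 0.88 ± 0.19, adjusted p = 0.000459), and this call held without any single library.

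PKS1 and PKS2 were higher than vehicle with 100 ng/ml at 72 h. Their means there were 21.6 and 4.93 CPM, beside 27.2 and 4.87 CPM in the parent cultures. PKS1 had 22.2, 25.9, 21.5 and 16.8 CPM then, against 4.51, 5.02, 6.01 and 7.66 CPM with vehicle, 3.73-fold higher (log2 1.90 ± 0.29, adjusted p = 4.17e-06). At 24 h the same dose gave 8.98, 9.42, 10.2 and 12.7 CPM, against 8.42, 9.38, 7.60 and 16.8 CPM with vehicle, and the groups overlapped (log2 −0.02 ± 0.28, adjusted p = 0.955). The 24 h value was reversed by scaling with library totals (0.86, adjusted p = 0.0222). PKS2, a gene with few counts, had 4.96, 5.61, 5.47 and 3.67 CPM with 100 ng/ml at 72 h, against 0.752, 0.724, 2.70 and 2.53 CPM with vehicle, 2.94-fold higher (log2 1.55 ± 0.43, adjusted p = 0.00371). The 2 low vehicle values belong to replicates 1 and 2, and with replicates 3 and 4 alone the difference was 0.87 with an adjusted p of 0.227. At 24 h PKS2 averaged 2.90 ± 1.12 CPM with 100 ng/ml, against 2.10 ± 1.04 CPM with vehicle (log2 0.50 ± 0.42, adjusted p = 0.347), and library totals gave 1.37 with an adjusted p of 0.0202.

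PKS11 fell with 100 ng/ml at both times. At 24 h it had 20.5, 17.3, 18.998 and 20.7 CPM, against 54.6, 50.3, 28.5 and 115 CPM with vehicle, 3.20-fold lower (log2 −1.68 ± 0.44, adjusted p = 0.00284). At 72 h it had 21.3, 51.2, 17.3 and 13.5 CPM, against 125, 102, 81.0 and 77.0 CPM with vehicle, 3.74-fold lower (log2 −1.90 ± 0.44, adjusted p = 0.000777). The groups did not overlap at either time, although vehicle replicate 4 at 24 h and replicate 2 of 100 ng/ml at 72 h lay far above the others. No alternative scaling, test or left-out library ended either call, and the weakest was library totals at 24 h (−0.74, adjusted p = 0.0497).

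PKS9 was lower at 24 h, with 10.3, 10.988, 7.93 and 12.9 CPM at 100 ng/ml, against 19.9, 17.3, 15.2 and 27.04 CPM with vehicle. This was 1.89-fold lower (log2 −0.92 ± 0.24, adjusted p = 0.0027), and library totals gave −0.07 with an adjusted p of 0.822. With 10 ng/ml at 24 h its difference was −0.68 ± 0.24 with an adjusted p of 0.0558, and −0.69 with an adjusted p of 0.013 under the replicate block; it also passed without replicate 4 of 10 ng/ml (−0.92, adjusted p = 0.0117), without vehicle replicate 3 (−0.79, adjusted p = 0.0429) and in DESeq2 (adjusted p = 0.0309). At 72 h the mean was 19.3 CPM with 100 ng/ml, against 20.7 CPM with vehicle (log2 −0.10, 95% interval −0.56 to 0.36, adjusted p = 0.756), which library totals reversed to 1.01 (adjusted p = 0.000545). PKS10 gave log2 differences of −0.26 at 24 h (interval −0.98 to 0.47) and −0.06 at 72 h (−0.78 to 0.67), neither past the threshold; library totals turned both to 0.67 and 1.06, with adjusted p of 0.015 and 0.000235. PKS7 gave 0.01 at 24 h (interval −0.54 to 0.56) and 0.59 at 72 h (0.03 to 1.14, adjusted p = 0.0882). PKS7 passed at both times with library totals (0.89, adjusted p = 0.00974, and 1.63, adjusted p = 1.87e-05), and at 72 h with replicates 1 and 2 alone (1.02, adjusted p = 0.0428). At 72 h it also passed with the replicate block (0.59, adjusted p = 0.0374).

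PKS4 was close to absent from these libraries. It had 23 counts in all, spread over 16 of the 36 libraries, and was at 0 in the other 20, including all 4 cultures with 10 ng/ml at 72 h. Its highest value was 6 counts, in vehicle replicate 3 at 24 h. Most libraries were thus at or under a floor of 3 counts, and no fold change is given.

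**Figure D2:**
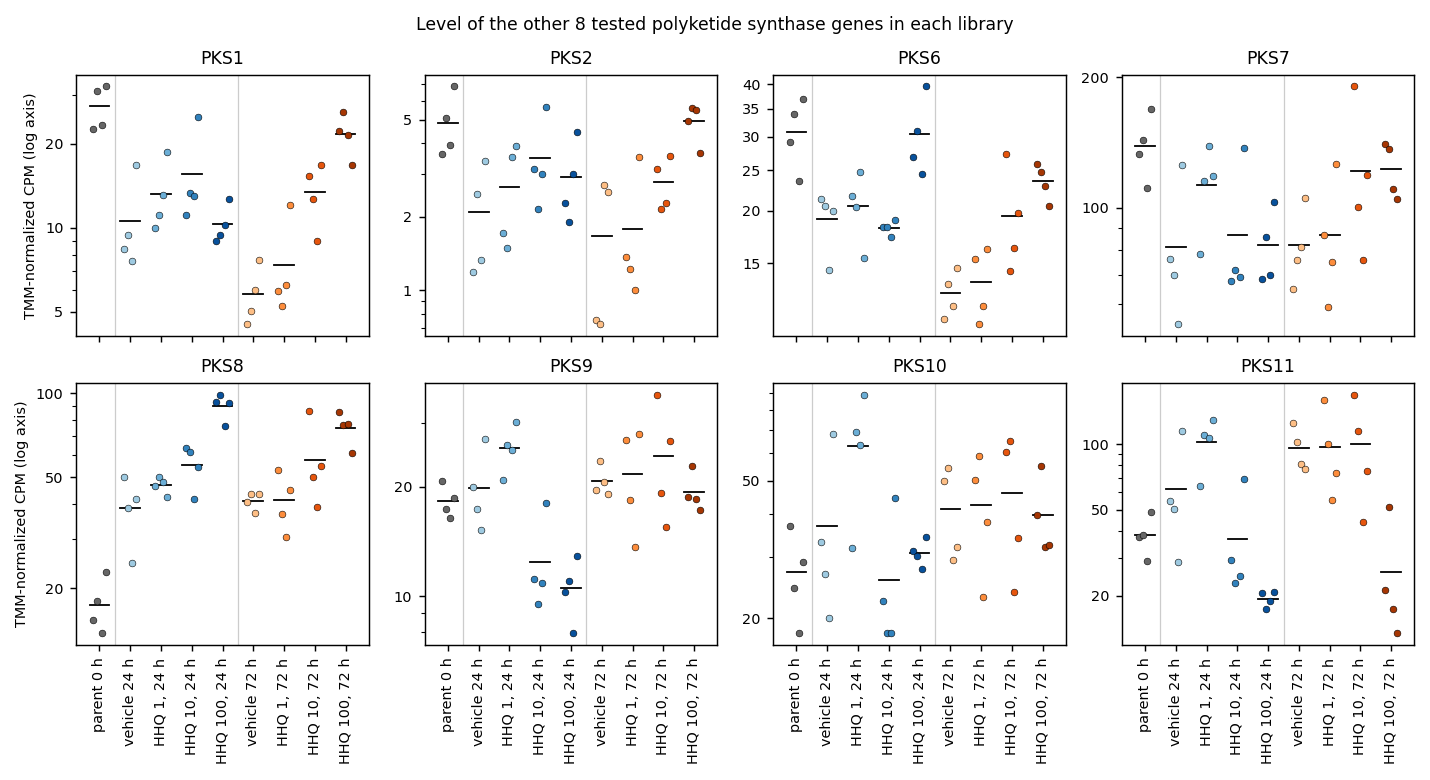
TMM-normalized CPM on log axes for the other 8 tested members in each of the 36 libraries; points are libraries, black lines means of 4 cultures, and each panel has its own scale. On average PKS8 stood highest with 100 ng/ml at both times, PKS11 lowest with 100 ng/ml, and PKS1 higher with 100 ng/ml at 72 h, against vehicle, without a like difference at 24 h.

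Over the family, 100 ng/ml against vehicle at 24 h moved members in both directions: of 10 tested, 3 were higher (PKS5, PKS8, PKS6) and 3 lower (PKS3, PKS11, PKS9), while 41.1% of all tested genes were called (21.6% higher and 19.5% lower). At 72 h 5 were higher (PKS5, PKS1, PKS2, PKS6, PKS8) and 2 lower (PKS3, PKS11), where 46.2% of all genes were called (22.6% higher and 23.6% lower). The median log2 fold change of the 10 members was −0.01 at 24 h, beside 0.07 for all genes, and 0.73 at 72 h, beside 0.04. The cultures of the 2 groups did not overlap for 6 members at 24 h and 7 at 72 h, where 42.5% and 39.5% of all genes did not. With library totals alone the split was 7 higher and 2 lower at 24 h, and 8 higher and 2 lower at 72 h. All genes moved alike under that scaling, 43.6% being higher and 6.81% lower at 24 h, and 54.7% and 6.01% at 72 h. PKS3 and PKS11 stayed lower and PKS5, PKS8 and PKS6 higher at both times under each scaling tried.

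With 10 ng/ml, 1 member was higher (PKS5) and 1 lower (PKS3) at 24 h, where 11.8% of all genes were called (7.39% higher and 4.37% lower). With the replicate block the count was 4, with PKS8 and PKS9 added, while the share of all genes called was 20.7%; without vehicle replicate 4, a library that stood apart, PKS1 passed as well (0.87, adjusted p = 0.0444). Library totals left 1 member, PKS5, and 7.97% of all genes. At 72 h 1 member was called, where 0.947% of all genes were (0.672% higher and 0.276% lower): PKS1 was 2.31-fold higher (log2 1.21 ± 0.29, adjusted p = 0.0299). Its cultures had 15.4, 12.6, 8.94 and 16.8 CPM with 10 ng/ml, against 4.51, 5.02, 6.01 and 7.66 CPM with vehicle, and did not overlap. The call was lost on leaving out vehicle replicate 1, 2 or 3 or replicate 1 or 4 of 10 ng/ml, with adjusted p up to 0.121, and in either pair of replicates alone (adjusted p = 0.0671 for replicates 1 and 2, 0.715 for 3 and 4). Library totals (adjusted p = 0.0557) ended it too, as did a fit limited to these groups (adjusted p = 0.178). With the replicate block 2 members were called, PKS1 and PKS5, and 2.74% of all genes. The cultures did not overlap for 2 members at each time, where 17.5% of all genes at 24 h and 5.19% at 72 h did not.

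With 1 ng/ml no member was called at either time, as for all genes (0% at 24 h and 0% at 72 h; edgeR). At an unadjusted p under 0.05 there was 1 member at 24 h, PKS10 (log2 0.77 ± 0.37), among 2045 genes, and 0 members at 72 h among 494 genes; DESeq2 called 0 members at both times, and 13 and 6 genes in all. No member's cultures lay apart from vehicle, where 3.14% of all genes at 24 h and 0.872% at 72 h did so. PKS3 was the most tightly bounded of the strong responders, with log2 differences of 0.01 at 24 h (95% interval −0.43 to 0.46) and 0.02 at 72 h (−0.43 to 0.46). PKS5 had 0.16 (−0.46 to 0.79) and 0.40 (−0.24 to 1.03). For PKS11 at 24 h the interval ran from −0.11 to 1.56, so a change within that range was neither shown nor excluded by these cultures.

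**Figure D3:**
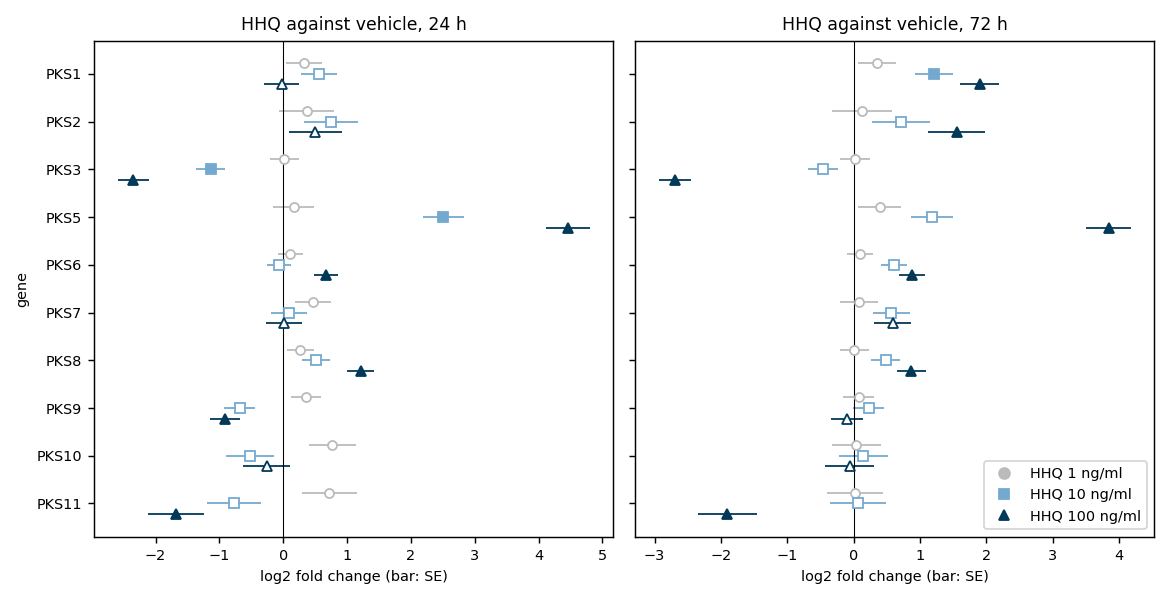
Log2 fold change of each tested member against vehicle at 24 h (left) and 72 h (right), by HHQ dose; bars are SE, filled symbols passed an adjusted p of 0.05 and open ones did not. PKS5 reached 4.46 and 3.84 at 100 ng/ml and PKS3 −2.35 and −2.69, while no symbol at 1 ng/ml is filled.

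Between the 2 higher doses the strong responders separated again. At 24 h PKS5 was 3.87-fold higher with 100 ng/ml than with 10 ng/ml (log2 1.95 ± 0.30, adjusted p = 2.43e-05) and PKS3 was 2.32-fold lower (log2 −1.21 ± 0.23, adjusted p = 0.000367). PKS6 (0.74, adjusted p = 0.0069) and PKS8 (0.70, adjusted p = 0.0224) were also higher, making 3 higher and 1 lower of 10, where 18.7% of all genes were called (9.5% higher and 9.18% lower). The cultures of the 2 doses did not overlap for 5 members, where 32.6% of all genes did not. Of the calls, PKS6 was lost without replicate 4 of 100 ng/ml (adjusted p = 0.056), PKS8 without any 1 of replicates 1, 2 and 4 of 100 ng/ml or 3 and 4 of 10 ng/ml (adjusted p up to 0.0997), and PKS3 with library totals (−0.65, adjusted p = 0.109), where the split was 4 higher and 0 lower, beside 19.9% and 4.37% of all genes. Without replicate 4 of 100 ng/ml 2 members were called, where 4955 of 26781 genes were. With the replicate block 5 were called, PKS1 being added as lower (−0.53, adjusted p = 0.0431), where that fit called 35% of all genes.

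At 72 h PKS5 was 6.30-fold higher with 100 than with 10 ng/ml (log2 2.66 ± 0.31, adjusted p = 1.23e-07), PKS3 4.70-fold lower (log2 −2.23 ± 0.24, adjusted p = 2.03e-08) and PKS11 3.91-fold lower (log2 −1.97 ± 0.44, adjusted p = 8e-04). PKS1 was 1.61-fold higher at the edge of the threshold (adjusted p = 0.049), a call lost without any 1 of replicates 1, 2 and 3 of either dose (adjusted p up to 0.154). In all 2 were higher and 2 lower, where 39.5% of all genes were called (19.3% higher and 20.2% lower), and 4 members did not overlap, where 33.9% of all genes did not. With the replicate block 6 were called, PKS2 (0.89, adjusted p = 0.035) and PKS8 (0.44, adjusted p = 0.0348) being added, where that fit called 49% of all genes. PKS8 also passed without replicate 1 of 10 ng/ml (0.65, adjusted p = 0.0211), and with library totals 8 were higher and 2 lower, beside 48.6% and 5.09% of all genes. These comparisons share the cultures of 100 ng/ml with those against vehicle, and those against vehicle share the vehicle cultures among doses, so they are not independent of each other.

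The response to 100 ng/ml was then compared between the times. PKS1 was the 1 member whose response differed: its log2 fold change was greater by 1.92 ± 0.40 at 72 h than at 24 h (adjusted p = 0.00234), where 6.03% of all genes were called (3.37% higher and 2.65% lower). With the 72 h replicates 3 and 4 alone it was 1.59 with an adjusted p of 0.0594, and with replicates 1 and 2 alone PKS2 was also called (2.38, adjusted p = 0.0407). The differences between times for PKS3 (−0.34 ± 0.32, adjusted p = 0.67) and PKS5 (−0.62 ± 0.43, adjusted p = 0.511) did not pass. For 10 ng/ml no member was called, where 1.44% of all genes were (0.204% higher and 1.23% lower). At an unadjusted p under 0.05 (edgeR) there were 4 members among 2542 genes. DESeq2 called 0 members and 2.65% of all genes. PKS5 had −1.32 ± 0.44 (adjusted p = 0.169), and −1.36 with an adjusted p of 0.0161 under the replicate block, where 3.04% of all genes were called, its response at 24 h being the greater.

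The vehicle cultures differed from the parent cultures without any HHQ. PKS3 averaged 734 CPM in vehicle cultures at 24 h, against 55.4 ± 2.77 CPM in parent cultures, 13.3-fold higher (log2 3.73 ± 0.25, adjusted p = 4.28e-13), and the lowest vehicle culture had 615 CPM, against a highest parent culture of 58.8 CPM. PKS5 was 2.43-fold higher (log2 1.28 ± 0.34, adjusted p = 0.00503), with vehicle replicate 3 inside the parent range, and the call was lost with library totals (1.01, adjusted p = 0.074) and in a fit of these groups alone (1.28, adjusted p = 0.0671). PKS8 was 2.22-fold higher, at 38.9 ± 10.6 CPM in vehicle cultures and 17.5 ± 3.92 CPM in parent cultures (adjusted p = 0.000142).

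PKS1, PKS2 and PKS6 were lower in vehicle cultures at 24 h than in parent cultures. PKS1 averaged 10.6 ± 4.25 CPM, against 27.2 ± 4.90 CPM, 2.59-fold lower (adjusted p = 0.000381). PKS2 averaged 2.10 ± 1.04, against 4.87 ± 1.46 CPM, 2.37-fold lower (adjusted p = 0.0333), a call lost without parent replicate 4 or vehicle replicate 1 or 3 (adjusted p up to 0.0906). PKS6 averaged 19.1 ± 3.11, against 30.9 ± 5.79 CPM, 1.62-fold lower (adjusted p = 0.00778). In all 3 members were higher and 3 lower, where 18.9% of all genes were called (9.81% higher and 9.12% lower); library totals gave 2 higher and 4 lower, with PKS7 (−0.77 and an adjusted p of 0.0535 on the TMM scale) among the lower, beside 5.03% and 9.13% of all genes. PKS7 also passed without parent replicate 3 (−0.96, adjusted p = 0.0232) or vehicle replicate 4 (−1.06, adjusted p = 0.00868), with replicates 1 to 3 alone (adjusted p = 0.017), with RLE factors (0.0306), in DESeq2 (0.0167) and with no filter (0.0339), so this miss depends on the settings. The cultures did not overlap for 5 members, where 21.5% of all genes did not. Inoculation, the solvent and the time since inoculation changed together here, and their effects cannot be told apart.

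Between vehicle at 72 h and vehicle at 24 h no member was called by edgeR, where 7.11% of all genes were (3.92% higher and 3.19% lower), and none lay apart, where 10.3% of all genes did. At an unadjusted p under 0.05 there were 3 members, among 5655 genes: PKS3 (0.67, adjusted p = 0.0734), PKS1 (−0.86, adjusted p = 0.0626) and PKS6 (−0.58, adjusted p = 0.0626). DESeq2 called 2, PKS1 and PKS6, and 11.8% of all genes. Each of these 3 also passed in some fits that left out 1 library: PKS1 and PKS6 without vehicle replicate 3 at 24 h (adjusted p = 0.0468 and 0.0388), PKS1 without vehicle replicate 4 at 72 h (0.0461), and PKS3 without replicate 4 at 24 h (0.0479) or replicate 1 at 72 h (0.0408).

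Ordered by group mean, PKS3 spanned 21.3-fold and PKS5 54.1-fold. For PKS3 the parent cultures were lowest, then 100 ng/ml at 24 h and at 72 h, which overlapped, then 10 ng/ml at 24 h; above these the vehicle and 1 ng/ml groups of both times and 10 ng/ml at 72 h formed a run in which each neighbour overlapped the next. For PKS5 the order rose in separate steps, with the parent cultures lowest, then vehicle and 1 ng/ml of both times overlapping, then 10 ng/ml at 72 h, 10 ng/ml at 24 h, 100 ng/ml at 72 h and last 100 ng/ml at 24 h, each apart from the next; the parent cultures lay apart from vehicle at 72 h, the nearest group by mean, but overlapped vehicle at 24 h. PKS11 spanned 5.29-fold, PKS8 5.15-fold, PKS1 4.70-fold and PKS2 2.94-fold, with neighbours overlapping all along the order except above the parent cultures for PKS8. PKS10, PKS9, PKS6 and PKS7 spanned 2.45-fold, 2.43-fold, 2.42-fold and 1.71-fold, with a gap between neighbours for PKS6 alone, from 1 ng/ml at 72 h to 10 ng/ml at 24 h.

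The composition of the family's counts differed between groups mainly in the share of PKS3. PKS3 made up 15.7% ± 2.89 of the counts of the 11 genes in the parent cultures. At 24 h it made up 73.4% ± 5.53 with vehicle, 65.6% ± 4.61 with 1 ng/ml, 55.2% ± 6.06 with 10 ng/ml and 29.3% ± 3.31 with 100 ng/ml. At 72 h it made up 78.5% ± 5.35, 78.0% ± 6.78, 68.6% ± 8.69 and 32.7% ± 4.59 in the same order of doses. The share with 100 ng/ml, 25.6% to 33.7% at 24 h, lay far below the 67.1% to 78.6% of vehicle cultures, and this share does not depend on the scaling between libraries. It is a share of counts and not of transcripts, since counts also grow with transcript length.

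PKS5 made up 13.9% ± 1.15 of the family's counts with 100 ng/ml at 24 h, against 0.301% ± 0.105 with vehicle, and 7.63% ± 1.08 against 0.211% ± 0.0819 at 72 h. The summed level of the family was 488 ± 74.4 CPM with 100 ng/ml, against 1009 ± 215 CPM with vehicle at 24 h, and 556 ± 56.0 against 1471 ± 313 CPM at 72 h. The parent cultures were lower still, at 360.2 ± 49.3 CPM. Without PKS3 the sums were 344 ± 39.4 against 274 ± 107 CPM at 24 h and 376 ± 59.5 against 305 ± 23.1 CPM at 72 h, with overlapping ranges at both times. These sums are descriptions and carry no test.

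**Figure D4:**
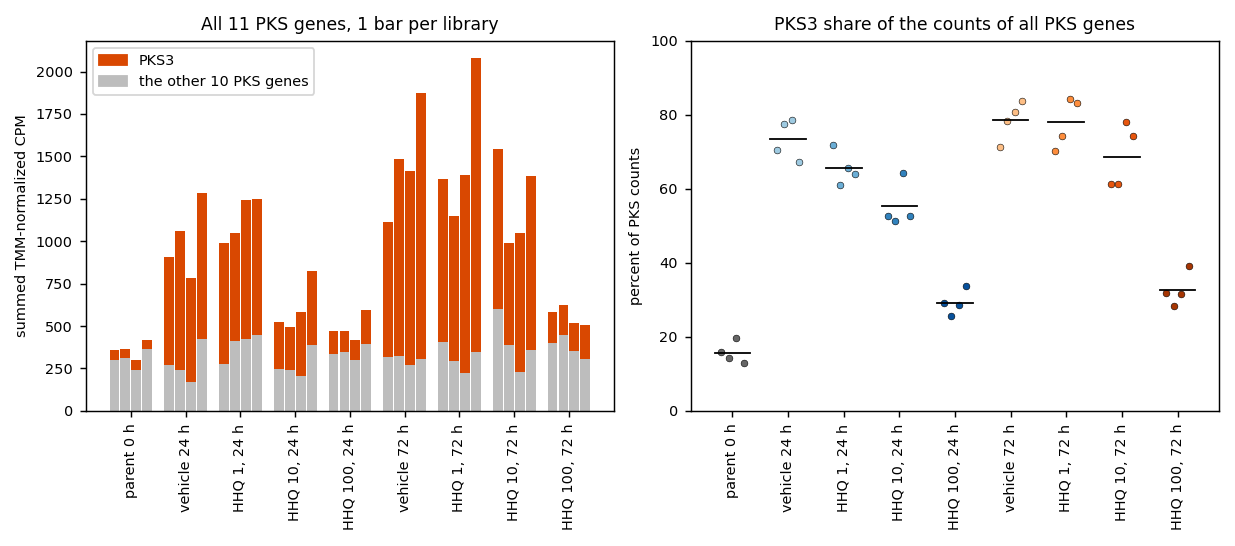
Left, summed TMM-normalized CPM of the 11 genes in each library, split into PKS3 and the other 10, with 4 bars per group in order of replicate; right, the share of PKS3 in the counts of the 11 genes, with points for libraries and black lines for group means. PKS3 held a mean of 29.3% of the counts with 100 ng/ml at 24 h, against 73.4% with vehicle, and 15.7% in the parent cultures.

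Several pairs of members varied together over the 9 group means of log2 CPM. PKS1 and PKS2 had a Pearson correlation of 0.96, PKS5 and PKS8 of 0.90, PKS3 and PKS11 of 0.80, PKS1 and PKS7 of 0.80, PKS2 and PKS6 of 0.79 and PKS9 and PKS11 of 0.78. PKS3 ran against PKS6 (−0.89) and PKS2 (−0.84). These values are over 9 points that share libraries and scaling, and they describe these groups without a test. Counts of PKS1, PKS2 and PKS8 were fractional in all 36 libraries and those of PKS5 in 30. How far reads divided among similar sequences enter these correlations was not tested.

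**Figure D5:**
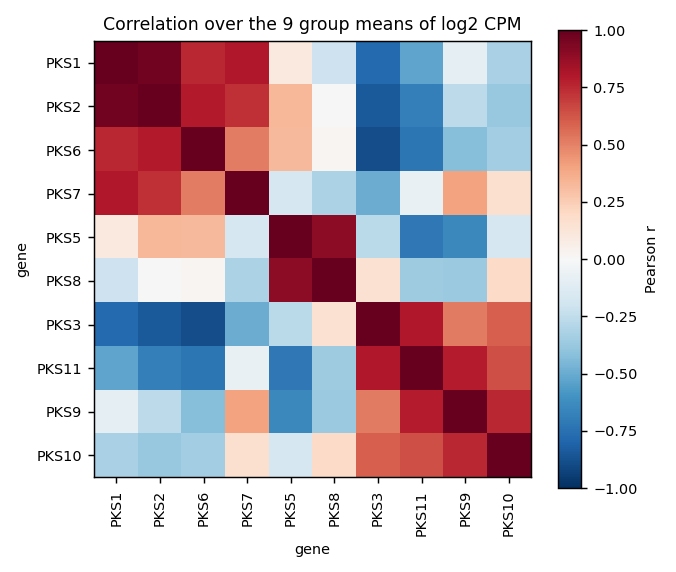
Pearson correlation between the tested members over the 9 group means of log2 CPM, coloured from −1 (blue) to 1 (red). PKS1 with PKS2 (0.96) and PKS5 with PKS8 (0.90) are the closest pairs, and PKS3 with PKS6 (−0.89) the most opposed.

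Among 621 tested genes with a symbol and a mean of at least 1 CPM, the 5 most like PKS3 over the 9 group means were PDK4, CRY3 and the antenna genes Lhcf52, Lhcf40 and Lhcf35, with correlations of 0.984, 0.964, 0.971, 0.970 and 0.967. The 5 most like PKS5 were COG3 (0.984), TOR1 (0.982), NHA1 (0.977), SEC24A (0.975) and TOR2 (0.974). Those most like PKS9 were Roco2 (0.967), Lipocalin (0.928), Ras1-2 (0.925), GLT8 (0.925) and GSH5 (0.910). All rest on the same libraries and scaling as above.

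Fatty acid synthesis draws on the same acyl units, and 10 genes named for it were looked at beside the family: the ketoacyl synthases KAS1 and KAS2, the acetyl-CoA carboxylases ACC-1 to ACC-3, the desaturases FADS1 and FADS2, the elongases ELO_a and ELO_b and the acyl-CoA synthetase LCFACS1. Of these 9 were tested, all but ELO_a. With 100 ng/ml at 24 h, 3 were higher (ACC-3 1.98, FADS2 0.86, FADS1 0.77 on the log2 scale) and 2 lower (ELO_b −1.60, KAS2 −1.51), which is 5 of 9 where 41.1% of all genes were called. At 72 h the same 3 were higher (2.14, 2.41 and 2.36 in that order), and KAS1 (−1.87), ELO_b (−1.59) and KAS2 (−1.58) were lower, which is 6 of 9 where 46.2% of all genes were called. The higher calls held under every alternative, but KAS2 was lost with library totals at both times (−0.58 and −0.62, adjusted p = 0.085 and 0.0573), at 24 h without vehicle replicate 4 (−0.95, adjusted p = 0.0859) and at 72 h with replicates 1 and 2 alone (−1.03, adjusted p = 0.146) or in a fit of the compared groups alone (−1.49, adjusted p = 0.0557), and ELO_b with library totals at 72 h (−0.46, adjusted p = 0.0573). Without vehicle replicate 3 or replicate 4 of 100 ng/ml, KAS1 was also lower at 24 h (adjusted p = 0.0319 and 0.023), and without the second of these LCFACS1 was (adjusted p = 0.0158). The replicate block made LCFACS1 lower at 24 h (−1.06, adjusted p = 0.00284) and 72 h (−1.04, adjusted p = 0.00318), and KAS1 at 24 h (adjusted p = 0.0292). Its split was 3 higher and 4 lower at each time, beside 51.1% and 54.4% of all genes called. The 72 h replicates 3 and 4 alone also made LCFACS1 lower (−1.60, adjusted p = 0.0308). With library totals the split was 4 higher and 1 lower at 24 h and 5 and 1 at 72 h, beside the shares of all genes given above for that scaling. The list's median was 0.03 at 24 h and −0.03 at 72 h, beside 0.07 and 0.04 for all genes.

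With 10 ng/ml the desaturases were the 2 genes of that list that rose at 24 h (FADS1 1.28, FADS2 1.42) and at 72 h (1.00 and 1.08), with 0 lower. That is 2 of 9 at each time, where 11.8% and 0.947% of all genes were called. The 72 h calls were lost with library totals (adjusted p = 0.107 and 0.0921), in a fit of the compared groups alone and in either pair of replicates. At 24 h the replicate block added ACC-3 (1.24, adjusted p = 0.0427) and ELO_b (−0.60, adjusted p = 0.0392), where that fit called 20.7% of all genes. FADS1 and FADS2 have similar names, and whether reads were shared between them was not tested. With 1 ng/ml 0 of the 9 were called at either time, where 0% of all genes were. In vehicle cultures at 24 h against parent cultures, ACC-2 (2.73), ACC-1 (2.16), FADS1 (1.23) and FADS2 (1.18) were higher and 0 lower. That is 4 of 9, where 18.9% of all genes were called. The desaturases, like PKS1, responded more to 100 ng/ml at 72 h than at 24 h, by 1.59 for FADS1 and 1.55 for FADS2 on the log2 scale (edgeR, adjusted p = 0.000327 and 0.00169).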

How the data were processed

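RNA of 36 axenic cultures was sequenced with a stranded kit that captures poly(A) RNA, per the labels' protocols. The authors deposited estimated counts, 1 per gene and library and without normalization; per the submitters' processing notes, Trimmomatic 0.38 and Salmon 0.12.0 were used, and for the reference transcripts and settings the sources used here give no name. Of the values, 45.8% were not whole, and all were rounded before testing. An annotation table of the assembly of a strain other than the cultured one held 37202 of the 37212 identifiers. It paired all 11 PKS symbols with a locus tag. The build of the files is not named, so no position or sequence is printed.

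In R 4.3.3 with edgeR 4.0.16, 1 quasi-likelihood fit over all 36 libraries had a mean per group, TMM scaling and the edgeR filter on low counts. Tests were two-sided, and p was adjusted by Benjamini-Hochberg over 26494 genes within each of 12 comparisons; a call needed an adjusted p under 0.05. SE is the log2 fold change over the root of F, intervals are 1.96 SE either way, and log2 CPM used a prior count of 2. CPM of single libraries has no prior.

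Totals ran from 5679128 to 42602884 counts; intervals from counts would cover counting error only, and the spread among 4 cultures sets the precision. Within groups, the 54 pairs of libraries had a chi-square of 5.61 to 211 per gene, and each library was kept as its own replicate. Tested on simulated counts for 100 ng/ml against vehicle at 24 h with 25576 genes, 37% of 2-fold and 79% of 4-fold changes were recovered, at median log2 sizes of 1.03 and 1.97, with 6 false calls. Only 100 genes were changed at each size, and no shift in the composition of the libraries was simulated. These rates therefore do not describe the real comparison, where 41.1% of all genes were called.

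Same-numbered cultures deviated together, every pair's correlation being over 0.1, for 10 ng/ml against vehicle at 24 h (0.174 to 0.500) and 72 h (0.201 to 0.438), 1 ng/ml against vehicle at 72 h (0.284 to 0.445) and 100 against 10 ng/ml at 24 h (0.120 to 0.422) and 72 h (0.134 to 0.450). The labels do not say what a number shares, and the blocked value stands beside a result where it changed a call there.

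Members and lists were chosen with earlier results of these data known. Every row named PKS and a digit is accounted for; the genes most like PKS3, PKS5 and PKS9 are the 5 symbols with the highest correlation over group means. The name pattern for fatty acid genes matched 18 symbols. Of these, FAB1 and 11 ACPT genes were left out because their roles are unsure. ACC-1 to ACC-3 and LCFACS1 were added after the identifiers were seen. The 18 gave 3 higher and 5 lower of 13 tested with 100 ng/ml at 24 h, and 4 and 6 at 72 h. The shares of all genes called there were 41.1% and 46.2%. Alternatives were library totals, RLE size factors, DESeq2 1.42.0, no filter, a fit of the compared groups alone, the replicate block, leaving out each library, and leaving out replicate 4 at 24 h and time 0 or either pair of replicates at 72 h; their use on the fatty acid list was chosen after seeing the data.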

Additional observations from a re-analysis of the deposited data

Results flagged for a closer look

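In 7 of 90 groups of 4 cultures checked (10 genes in 9 groups), 1 culture lay far from the other 3; chance alone gives about 1 in 20. In 4 of the 7 flagged groups the culture was replicate 4 with 10 ng/ml at 24 h. PKS1 had 24.9 CPM there (others 11.1 to 13.3) and PKS7 had 137 CPM (67.9 to 72.0). PKS10 had 44.6 CPM (18.1 to 22.4) and PKS11 had 69.0 CPM (22.8 to 29.2). Replicate 4 was the highest culture for 8 of 10 members with 10 ng/ml at 24 h, 9 with 100 ng/ml and 8 with vehicle. At 72 h with 1 ng/ml, replicate 4 had 12.1 CPM of PKS1 (others 5.24 to 6.23) and 3.52 CPM of PKS2 (1.01 to 1.37). PKS5 had 1.25 CPM in vehicle replicate 3 at 24 h (3.64 to 3.74), a culture that was the lowest of its group for 9 of 10 members.

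The response of PKS1 to 100 ng/ml differed between times: its log2 fold change was greater by 1.92 at 72 h than at 24 h, by a test of the difference itself (edgeR, adjusted p = 0.00234).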

How the results depend on the processing

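Of 31 calls of a member in a comparison, 19 held under every alternative run and 12 were lost in at least 1. PKS5, PKS3, PKS8 and PKS11 at 100 ng/ml against vehicle held throughout at both times, PKS3 between −2.61 and −1.53 at 24 h and −2.86 and −1.62 at 72 h on the log2 scale, and PKS5 between 4.16 and 5.29 and 3.65 and 5.02. Library totals reversed 6 values: PKS1 to 0.86 and PKS10 to 0.67 (100 ng/ml, 24 h), PKS9 to 1.01 and PKS10 to 1.06 (100 ng/ml, 72 h), and PKS9 to 0.66 and PKS10 to 0.83 (100 against 10 ng/ml, 72 h). They also gave 1 called member for 10 ng/ml at 24 h (7.97% of all genes) and 0 for 10 ng/ml at 72 h (0.51%). For 100 against 10 ng/ml at 72 h they gave 10 (53.6% of all genes), and for vehicle between times 2 (7.56%).

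For 10 ng/ml at 72 h, where 1 member was called, DESeq2 gave 2 (2.48% of all genes) and the compared groups alone 0 (0.254%). Either pair of 72 h replicates gave 0 (0.277% of all genes for replicates 1 and 2, 0.0629% for 3 and 4). For vehicle at 72 h against 24 h, where 0 were called, RLE factors gave 1 (7.7% of all genes) and DESeq2 2 (11.8%). The 24 h and time 0 replicates 1 to 3 alone gave 1 (13.1% of all genes), and the 72 h replicates 1 and 2 alone 1 (14.2%). The 24 h replicates 1 to 3 alone gave 2 for 100 against 10 ng/ml at 24 h, beside 11.3% of all genes. For the difference between times at 100 ng/ml, 72 h replicates 1 and 2 alone gave 2 and replicates 3 and 4 alone 0. These fits called 4.31% and 5.35% of all genes.

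The replicate block gave 4 for 10 ng/ml at 24 h, 2 for 10 ng/ml at 72 h and 1 for the difference between times at 10 ng/ml, and 5 and 6 for 100 against 10 ng/ml at 24 and 72 h, as stated beside those results. In other comparisons not every pair of same-numbered cultures had a correlation over 0.1. For 100 ng/ml against vehicle the correlations ran from 0.0137 to 0.448 at 24 h and from 0.0248 to 0.318 at 72 h. They ran from −0.168 to 0.362 for 1 ng/ml at 24 h and from −0.159 to 0.105 for vehicle against parent. For vehicle between times they ran from −0.299 to 0.138. Whether the numbers pair these cultures is not settled by that cut. In these comparisons the block gave 1 for 1 ng/ml at 24 h (PKS10, 0.86, adjusted p = 0.042), beside 4.67% of all genes. It gave 3 for vehicle between times (PKS1, PKS3, PKS6), beside 20.4% of all genes. With PKS7 added, it gave 8 for 100 ng/ml at 72 h and 7 for vehicle against parent, beside 54.4% and 25.5% of all genes. It changed no other call of a member.

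Leaving out 1 library gave the following counts of members, with the genes called in all in brackets, of 26651 to 26933 tested. For 100 ng/ml there were 5 to 6 at 24 h (8786 to 10454) and 7 in each fit at 72 h (10338 to 12381). For 10 ng/ml there were 2 to 3 at 24 h (2230 to 3033) and 0 to 1 at 72 h (161 to 210). For 1 ng/ml there were 0 at both times (0 to 2 and 0 to 1). For 100 against 10 ng/ml there were 2 to 4 at 24 h (3156 to 4955) and 3 to 4 at 72 h (7882 to 10722). Vehicle against parent gave 5 to 7 (4277 to 4931), and vehicle between times 0 to 2 (1060 to 3061). The differences between times gave 1 at 100 ng/ml (1248 to 1658) and 0 at 10 ng/ml (270 to 429). The cause of these changes was not tested. PKS2 had as few as 5.201 counts in a library, and PKS4 could not be tested.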
